A study of Homo sapiens with 28 samples.

Results

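The genes described here are 7 interleukin and growth factor genes: IL6, IL10, IL23A, EBI3, IL15, CSF1 and TGFB1. They were taken by symbol from the 56809 gene symbols of the deposited tables, and all 7 were present. Their polyadenylated RNA was read in 28 libraries from 14 clones of U937, a human monocytic cell line, each clone once with lipopolysaccharide (LPS, 500 ng/ml) and once untreated, at 6 h. LPS is a bacterial outer membrane component sensed by the receptor TLR4. The knockout clones each lacked 1 subunit of NF-kB by label: p50-/- (2 clones), p52-/- (2), p65-/- (3), c-Rel-/- (2, here cREL) and RELB-/- (2). The 3 control clones, CTR, had been targeted with guide RNAs of no specific target. This gave 12 groups of genotype and treatment, with 2 or 3 libraries each. Groups this small can lie wholly apart without any true difference, and the share of all genes that did so was not counted. Within a group each library came from a separate clone of 1 cell line, and a group of 2 clones is a narrow model of its genotype. P-values of the main test measure the spread between clones within groups, pooled over the 12 groups. That test does not use the pairing of a clone's 2 libraries. A fit with clone as a block, given where used, measures the spread left within clones.

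NF-kB subunits pair with each other, enter the nucleus after LPS and bind so-called kB sites near many cytokine genes. p65, cREL and RELB carry activation domains, while p50 and p52 do not. Of the 7 genes, IL6 encodes an inflammatory cytokine that signals through IL6R and IL6ST, and IL10 one that restrains macrophage activation through IL10RA and IL10RB. IL23A and EBI3 encode subunits that act only in pairs: IL23A joins IL12B to make interleukin 23, and EBI3 joins IL27 or IL12A. IL15 is carried to lymphocytes on IL15RA, CSF1 is the macrophage growth factor read by CSF1R, and TGFB1 is stored in a latent form bound to carrier proteins such as LTBP1.

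The libraries held 12643438 to 22122428 estimated counts each. Markers of the monocytic line were present: 10 of 12 averaged at least 1 TPM (a level scaled to transcript length and library total), led by LYZ at 1047 TPM. The T and NK cell list summed to 102 to 528 TPM, nearly all from NKG7, with CD3D at 0 in every library. Fibroblast markers summed to at most 3.44 TPM, dendritic cell markers to at most 1.33, epithelial markers to at most 2.68 and B cell markers to at most 15.4. The endothelial list summed to 153 to 261 TPM in RELB and 139 to 159 in p65 with LPS, against 79.1 to 91.1 in CTR with LPS. Nearly all of it was PECAM1, which monocytes also express, and CDH5, VWF and KDR reached at most 0.189, 0.387 and 0.0979 TPM. RELA, which encodes p65, ran from 3.20 to 8.19 TPM in p65 replicates 2 and 3. It was at 43.7 and 52.1 TPM in p65 replicate 1, against 23.2 to 38.3 TPM in the 22 libraries of other genotypes. RELB RNA with LPS was at 11.4 and 19.3 TPM in the clones labelled RELB replicates 1 and 2, against 19.6, 26.2 and 18.4 TPM in CTR, and at 3.12 to 9.25 TPM in the other knockouts. Untreated, it was at 2.48 and 5.83 TPM in these RELB clones, against 3.80, 14.1 and 5.81 TPM in CTR. The clones labelled p65 replicate 1 and RELB replicate 2 therefore had control levels or more of the targeted RNA, and RELB replicate 1 had more than every other knockout with LPS. With LPS, NFKB1 in p50 (6.83 and 4.10 TPM, against 10.3 to 14.5 in CTR), NFKB2 in p52 (1.63 and 1.96, against 5.19 to 7.51) and REL in cREL (7.11 and 2.49, against 12.5 to 14.7) lay below CTR. These lower levels were not particular to the targeted gene. NFKB2 with LPS was below CTR in every knockout, at 1.34 and 0.971 TPM in p50 and 0.997 and 0.989 in cREL. NFKB1 with LPS was also below CTR in p52, p65 and cREL, at 4.91 to 8.45 TPM. REL with LPS was below CTR in both p50 clones too, at 11.6 and 6.32 TPM. Edited genes can still give RNA, so RNA level does not settle a genotype, and p65 and RELB are names by label throughout. The main p65 and RELB results are also given without those 2 clones. The batch label ran with genotype in part: batch A held no CTR clone, and batch C held only CTR and p65 clones.

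The stretch just upstream of the start site is shown for the 4 genes whose RNA differed most with LPS or genotype, since kB sites lie there in several cytokine genes. The 250 bases before the RefSeq start site are printed 5′ to 3′ from GRCh38.p14, and capitals mark each match to a loose form of the kB site, GGG then any 5 bases then CC, on either strand.
IL6, chr7:22726950-22727199 (+ strand): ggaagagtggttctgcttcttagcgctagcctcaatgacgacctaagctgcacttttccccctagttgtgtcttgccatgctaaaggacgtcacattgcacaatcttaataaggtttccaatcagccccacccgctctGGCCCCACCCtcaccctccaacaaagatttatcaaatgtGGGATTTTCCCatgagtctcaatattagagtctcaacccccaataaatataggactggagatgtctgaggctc
IL10, chr1:206772495-206772744 (- strand): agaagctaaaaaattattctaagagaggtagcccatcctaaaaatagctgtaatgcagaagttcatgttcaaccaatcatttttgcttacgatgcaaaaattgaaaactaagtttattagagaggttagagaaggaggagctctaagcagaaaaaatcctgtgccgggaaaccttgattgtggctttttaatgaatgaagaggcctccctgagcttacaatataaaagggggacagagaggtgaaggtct
IL23A, chr12:56338634-56338883 (+ strand): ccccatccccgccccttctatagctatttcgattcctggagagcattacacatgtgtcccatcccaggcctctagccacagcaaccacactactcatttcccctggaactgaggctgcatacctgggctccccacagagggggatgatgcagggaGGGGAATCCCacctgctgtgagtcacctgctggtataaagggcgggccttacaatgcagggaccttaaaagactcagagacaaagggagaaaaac
EBI3, chr19:4229273-4229522 (+ strand): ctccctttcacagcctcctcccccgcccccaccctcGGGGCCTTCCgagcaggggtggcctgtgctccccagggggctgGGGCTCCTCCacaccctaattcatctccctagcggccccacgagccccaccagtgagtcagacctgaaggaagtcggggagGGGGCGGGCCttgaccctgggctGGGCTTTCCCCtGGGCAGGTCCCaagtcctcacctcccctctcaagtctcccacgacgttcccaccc
IL6 held 3 matches, of which GGGATTTTCC on the plus strand lay at positions -73 to -64 from the start site and overlapped a match on the other strand. IL23A held GGGGAATCCC at -95 to -86, which matched on both strands. EBI3 held 8 matches, several of them overlapping, and IL10 held 0 in this window. TGFB1 held 12 matches, many of them overlapping in runs of G and C, and IL15 and CSF1 had no entry. A match was common: 54.4% of 35116 promoter windows of this length held at least 1, so these letters describe the windows and mark no binding.

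The 7 genes fell into several ranges of abundance, compared per length in TPM. IL10 (median 4.75 TPM over the 28 libraries, range 0.192 to 17.7) and TGFB1 (median 3.97, range 0.511 to 7.21) were detected in every library. IL23A (median 1.04, range 0.280 to 10.1) and EBI3 (median 0.563, range 0 to 8.98) were low, and in most libraries rested on few reads. IL6, IL15 and CSF1 were close to the limit of detection. All 7 were thus low-abundance RNAs, and even IL10 had no more than 154 estimated counts in any library.

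A gene is called near zero in a group where each library had under 3 estimated counts. CSF1 was near zero in 9 of the 12 groups and at 0 in 24 of 28 libraries. Its 20 counts lay in 4 libraries: 9 in p50 replicate 1 untreated, 5 in CTR replicate 1 untreated, 5 in p65 replicate 1 with LPS and 1 in p52 replicate 2 with LPS. IL6 was near zero in 10 of 12 groups and at 0 in 23 libraries, among them all 14 untreated ones. IL15 was near zero in 2 of 12 groups, and stayed under 1 TPM in all 12 groups, with 0 to 7 counts and at most 0.364 TPM in a library. EBI3 was near zero in 1 group, and IL10, IL23A and TGFB1 in 0 groups. CSF1 and IL15 did not pass the filter on low counts and were not tested. A count of 0 in 1 library allows up to 3 counts, and since reads were amplified by PCR without molecular identifiers, such limits cover counting error only.

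**Figure D1:**
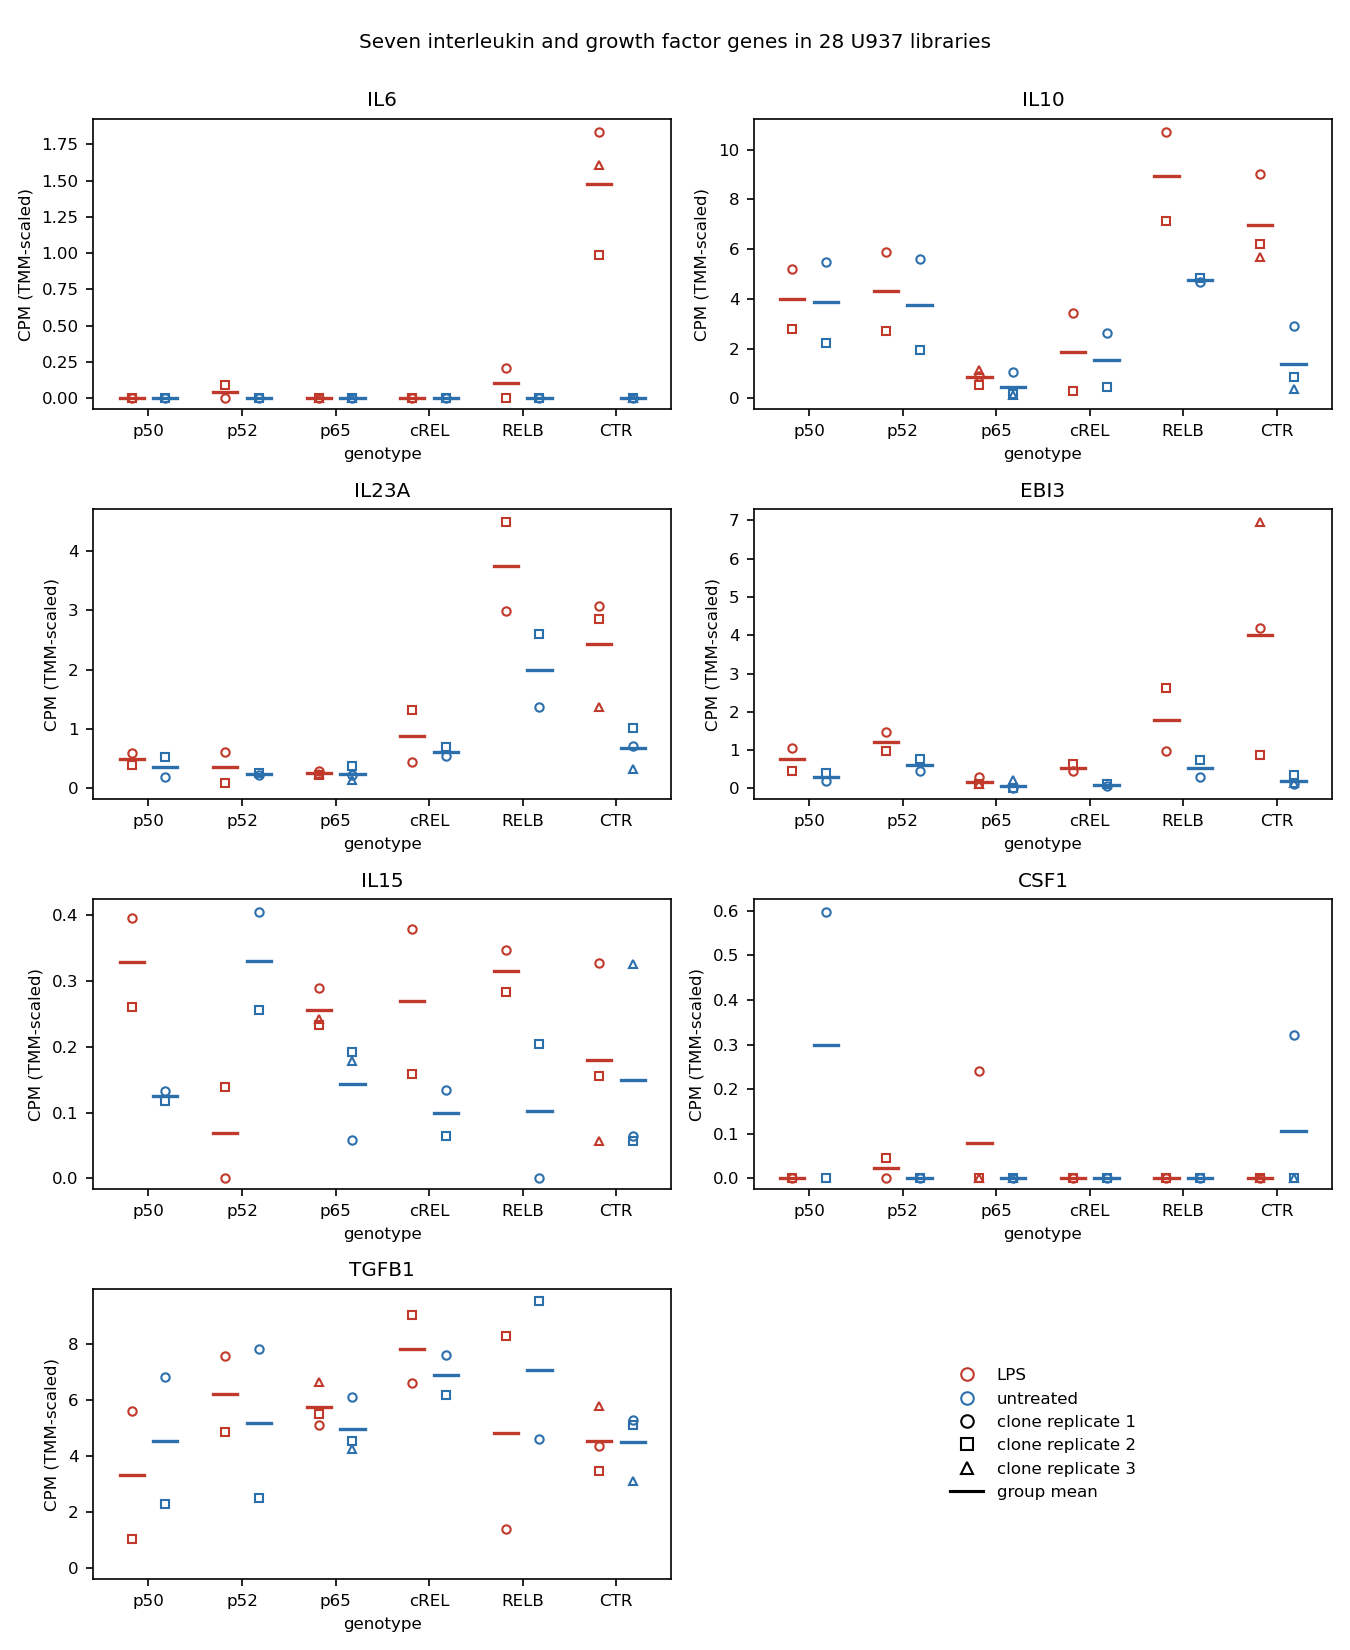
Level of each of the 7 genes in CPM (counts scaled to library size with TMM factors, linear vertical axis, a separate scale per gene) in the 28 libraries, by genotype. Points are libraries, marked by clone replicate, red with LPS and blue untreated, and bars are group means; IL6 is above 0.25 CPM in the 3 CTR libraries with LPS and in no other library, while IL10 and IL23A are highest in RELB and CTR with LPS.

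IL6 RNA was detected almost only in control cells given LPS. It had 28, 19 and 28 estimated counts (2.41, 2.04 and 2.22 TPM) in the 3 CTR libraries with LPS, against 0 in all 3 untreated CTR libraries. With LPS, the 11 knockout libraries together held 5 counts, 2 in p52 replicate 2 and 3 in RELB replicate 1, so every knockout library lay below every CTR library. The 75 counts of CTR with LPS, set against 3 counts over the untreated group as the limit for 0 and scaled to library size, made IL6 at least 22.7-fold higher with LPS. On the same basis IL6 with LPS was at least 14.2-fold lower in p50, at least 25.0-fold lower in p65 and at least 16.2-fold lower in cREL than in CTR. For p52 the ratio to CTR was 0.0428 (95% exact interval 0.00509 to 0.160), and for RELB it was 0.0700 (0.0141 to 0.213). Over all 11 knockout libraries the ratio was 0.0196 (0.00617 to 0.0477). These intervals cover counting error in the summed reads and not the spread between clones.

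The test that includes the spread between clones did not call IL6. In edgeR's quasi-likelihood test, with p-values adjusted over 18624 genes, IL6 had an adjusted p of 0.307 for LPS in CTR and of 0.0912 for p65 against CTR with LPS. For p50, p52, cREL and RELB against CTR with LPS the edgeR adjusted p values were 0.307, 0.388, 0.287 and 0.432. No fitted fold is given for IL6, because groups at 0 leave it without a bound. IL6 had passed the filter on low counts only through CTR with LPS. Its exons share 428 bases with the antisense gene AC073072.1 and 46 with STEAP1B. The 2 neighbours reached at most 5 and 2.02 counts in a library. Whether counting used strand is not given in the sources used here.

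In control cells, IL10, IL23A and EBI3 were higher with LPS in each of the 3 clones, and none of these differences passed the threshold across all genes. EBI3 was at 4.19, 0.882 and 6.95 CPM with LPS, against 0.129, 0.338 and 0.1304 CPM untreated. The groups did not overlap, although CTR replicate 2 was the lowest with LPS and the highest untreated. EBI3 had a log2 fold of 4.12 ± 0.93 (SE, n = 3 clones, edgeR adjusted p = 0.0575). IL10 was at 9.03, 6.23 and 5.69 CPM with LPS, against 2.90, 0.846 and 0.391 CPM untreated, again without overlap, with a log2 fold of 2.31 ± 0.79 (edgeR adjusted p = 0.539). IL23A was at 3.08, 2.85 and 1.38 CPM with LPS, against 0.709, 1.02 and 0.326 CPM untreated. The lowest IL23A value with LPS was still above the highest untreated one, and its log2 fold was 1.86 ± 0.60 (edgeR adjusted p = 0.443). TGFB1 was at 4.38, 3.48 and 5.80 CPM with LPS, against 5.28, 5.13 and 3.13 CPM untreated, and these overlapped (log2 fold 0.07 ± 0.48, edgeR adjusted p = 1).

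Over the whole table, 0.408% of the 18624 genes tested passed for LPS in CTR at an adjusted p under 0.05, and 0 of the 5 tested members did in edgeR. Of these 5, 4 had an unadjusted p under 0.05, among them IL6, which had passed the filter on low counts only through CTR with LPS, and DESeq2 called 1. Over all genes, 953 had an unadjusted p under 0.05 and DESeq2 called 155. The 2 libraries of a clone share that clone, and 2 fits that keep this pairing called some of the members. With each clone as a replicate block in edgeR, IL10 had a log2 fold of 2.64 ± 0.48 (adjusted p = 0.0076) and passed, EBI3 had 3.89 ± 0.93 (adjusted p = 0.0547) and IL23A 1.86 ± 0.56 (adjusted p = 0.181). With clone as a random effect in limma voom, IL10 (adjusted p = 0.0047) and EBI3 (0.00984) passed and IL23A (0.0891) did not. Over all alternatives the adjusted p ran from 0.000633 to 1 for IL10 and from 0.000208 to 0.861 for EBI3.

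In the knockouts the fitted LPS differences of IL10, IL23A and EBI3 were smaller than in CTR, and 0 of the 5 tested genes passed in any of them in edgeR or DESeq2, with 0 at an unadjusted p under 0.05. The share of all genes that passed was 0.0161% in p50, 0.0215% in p52, 0.0268% in p65, 0.0107% in cREL and 0.129% in RELB. An unadjusted p under 0.05 was reached by 291 genes in p65 (the fewest) to 539 in RELB (the most). EBI3 was higher with LPS by CPM in 13 of the 14 clones, the exception being p65 replicate 3 at 0.121 CPM with LPS against 0.224 CPM untreated. Some of these rises rest on almost no reads. In p50 replicate 2 EBI3 had 7 counts with LPS and 7 untreated. In p65 replicates 1 and 2 it had 6 against 0 and 2 against 0. How many of all genes were higher in as many clones was not counted. Its log2 fold was 2.39 ± 1.21 in cREL, 1.76 ± 0.98 in RELB, 1.25 ± 1.07 in p65, 1.23 ± 1.05 in p50 and 0.93 ± 0.96 in p52 (edgeR adjusted p = 1 in each). The fitted EBI3 fold was thus above 0 in all 6 genotypes, with standard errors near its size in p50, p52 and p65. With 1 clone left out, the log2 fold fell to as low as 0.15 in p50 and 0.03 in p65. The CTR clone of batch B was replicate 2, with EBI3 at 0.882 CPM with LPS against 0.338 untreated. Batch B clones of p50, p52, cREL and RELB were at 1.06 against 0.199, 1.47 against 0.462, 0.443 against 0.0674 and 2.61 against 0.751. As a ratio, the EBI3 response was larger in each of these knockout clones than in CTR replicate 2. For IL10 it was smaller in each, and for IL23A it was mixed. Batch B alone was not tested. IL10 was higher with LPS in both RELB clones by CPM, at 10.7 and 7.15 with LPS against 4.67 and 4.84 untreated (log2 fold 0.98 ± 0.90, edgeR adjusted p = 1). By TPM, which divides by an effective length that itself changed, RELB replicate 2 had 10.0 with LPS against 11.3 untreated, so its direction depends on the scale. IL23A was at 2.99 and 4.48 CPM in RELB with LPS, against 1.38 and 2.59 CPM untreated (log2 fold 0.92 ± 0.70, edgeR adjusted p = 1). In p65 the IL23A log2 fold was 0.01 ± 0.69 (edgeR adjusted p = 1).

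**Figure D2:**
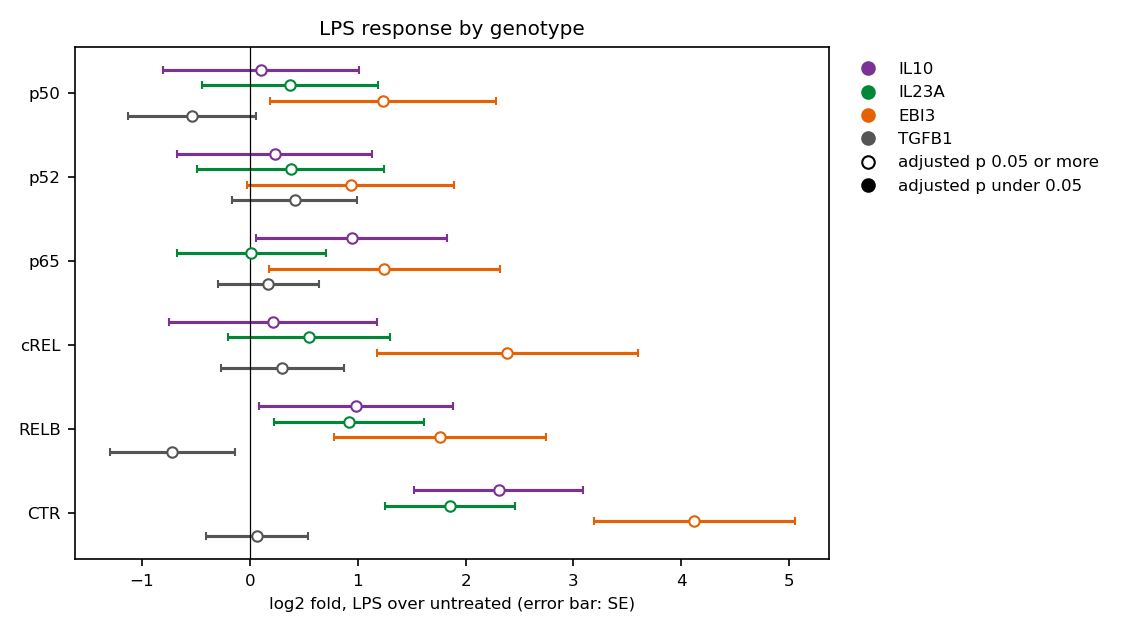
Log2 fold of LPS over untreated for IL10, IL23A, EBI3 and TGFB1 in each genotype, with standard errors from edgeR. Every point is open because none passed an adjusted p under 0.05; the 4.12 of EBI3 in CTR is the value farthest to the right, and IL6 is left out because most of its groups are at 0.

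The difference in LPS response between genotypes was tested directly and passed for 0 of 5 members in edgeR and DESeq2, with 1 (EBI3 in p52) at an unadjusted p under 0.05. For EBI3 the response minus that of CTR was -3.19 ± 1.33 on the log2 scale in p52, -2.89 ± 1.41 in p50, -2.87 ± 1.56 in p65, -2.36 ± 1.33 in RELB and -1.73 ± 1.68 in cREL (edgeR adjusted p = 1 in each). For IL10 these differences ran from -2.21 ± 1.20 in p50 to -1.32 ± 1.18 in RELB, and for IL23A from -1.84 ± 0.93 in p65 to -0.93 ± 0.91 in RELB (edgeR adjusted p = 1 in each). The 5 contrasts share the same CTR libraries, so their values are not separate evidence. CTR replicates 1 and 3 were in batch C, which held no p50, p52, cREL or RELB clone. An additive batch term does not adjust a response for batch. Across all genes 0.0161% passed for p65, and 0% for p50, p52, cREL and RELB, so few genes of any kind could be told apart in this way. An unadjusted p under 0.05 was reached by 550 genes for p50, 474 for p52, 519 for p65, 560 for cREL and 398 for RELB, and DESeq2 called 6, 7, 19, 4 and 3 genes in the same order.

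With LPS, p65 clones held less IL23A and EBI3 RNA than control clones, and these 2 differences passed. IL23A was at 0.290, 0.233 and 0.242 CPM in p65, against 3.08, 2.85 and 1.38 CPM in CTR. All p65 values lay far below all CTR values, with a log2 fold of -3.14 ± 0.67 (SE, n = 3 clones each, edgeR adjusted p = 0.0226). EBI3 was at 0.290, 0.116 and 0.121 CPM in p65, against 4.19, 0.882 and 6.95 CPM in CTR. Here too the groups did not overlap, and the log2 fold was -4.20 ± 0.95 (edgeR adjusted p = 0.0350). In counts these p65 levels are small, at 4 to 6 reads for IL23A and 2 to 6 for EBI3 in a library. IL10 was at 0.918, 0.524 and 1.15 CPM in p65, against 9.03, 6.23 and 5.69 CPM in CTR. It did not overlap either, but its log2 fold of -2.79 ± 0.82 missed the threshold (edgeR adjusted p = 0.119). TGFB1 was at 5.12, 5.53 and 6.66 CPM in p65, against 4.38, 3.48 and 5.80 CPM in CTR, which overlap (log2 fold 0.61 ± 0.48, edgeR adjusted p = 0.647). For this comparison 0.993% of all genes passed, and 0.655% passed as lower, beside 2 of the 5 tested members, both lower. In bulk RNA, fewer expressing cells and less RNA per cell cannot be told apart.

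The p65 calls depended on single clones. Of the 14 fits that each left out 1 clone, IL23A passed in 9 and EBI3 in 6. Without the clone labelled p65 replicate 1, whose RELA RNA was not low, EBI3 stayed past the threshold (log2 fold -5.08, edgeR adjusted p = 0.0460) and IL23A did not (-3.09, 0.134). Within batch C alone, which leaves 2 clones a group, the log2 folds were as large, at -3.21 for IL23A (edgeR adjusted p = 0.412) and -5.49 for EBI3 (0.187), and did not pass. Both genes passed with the batch term left out. Over all alternatives the adjusted p ran from 0.000833 to 0.412 for IL23A and from 0.000109 to 0.187 for EBI3, and the log2 fold from -3.42 to -2.71 for IL23A and from -5.49 to -3.59 for EBI3. With clone as a random effect in limma voom, IL10 (-2.74 ± 0.65, adjusted p = 0.0332) passed as well. Its adjusted p over all alternatives ran from 1.11e-05 to 0.439.

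In the other knockouts 0 of 5 members passed against CTR with LPS in edgeR or DESeq2. An unadjusted p under 0.05 was reached by 2 members in p50, 2 in p52, 4 in cREL and 1 in RELB. IL6 was one of them in each, and the only one in RELB. It had passed the filter on low counts only through CTR with LPS and is set against groups at or near 0. Its part in these counts is therefore not separate evidence. Over all 18624 genes an unadjusted p under 0.05 was reached by 1843 in p50, 1839 in p52, 1702 in cREL and 1826 in RELB. The share of all genes that passed was 0.129% in p50, 0.0698% in p52, 0.199% in cREL and 0.0483% in RELB. IL23A was at 0.594 and 0.391 CPM in p50 and at 0.620 and 0.0921 CPM in p52, each below the 1.38 CPM of the lowest CTR library. Its log2 fold was -2.52 ± 0.79 in p50 (edgeR adjusted p = 0.266) and -3.11 ± 0.81 in p52 (edgeR adjusted p = 0.145). The p52 value is about as large as that of p65, with 2 clones in place of 3. In cREL, IL23A was at 0.443 and 1.32 CPM, with the higher clone close to the lowest CTR library by CPM and above it by TPM (log2 fold -1.62 ± 0.76, edgeR adjusted p = 0.536). IL10 in cREL split by clone, at 3.41 and 0.317 CPM, both below CTR (log2 fold -2.29 ± 1.007, edgeR adjusted p = 0.491). IL10 was at 5.21 and 2.80 CPM in p50, below the lowest CTR library at 5.69 CPM (by TPM they overlapped), and at 5.89 and 2.72 CPM in p52, on either side of it. EBI3 was at 1.06 and 0.456 CPM in p50, 1.47 and 0.967 in p52 and 0.443 and 0.634 in cREL. Of these 3 knockouts, the cREL clones alone lay wholly below CTR, whose lowest library was at 0.882 CPM.

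**Figure D3:**
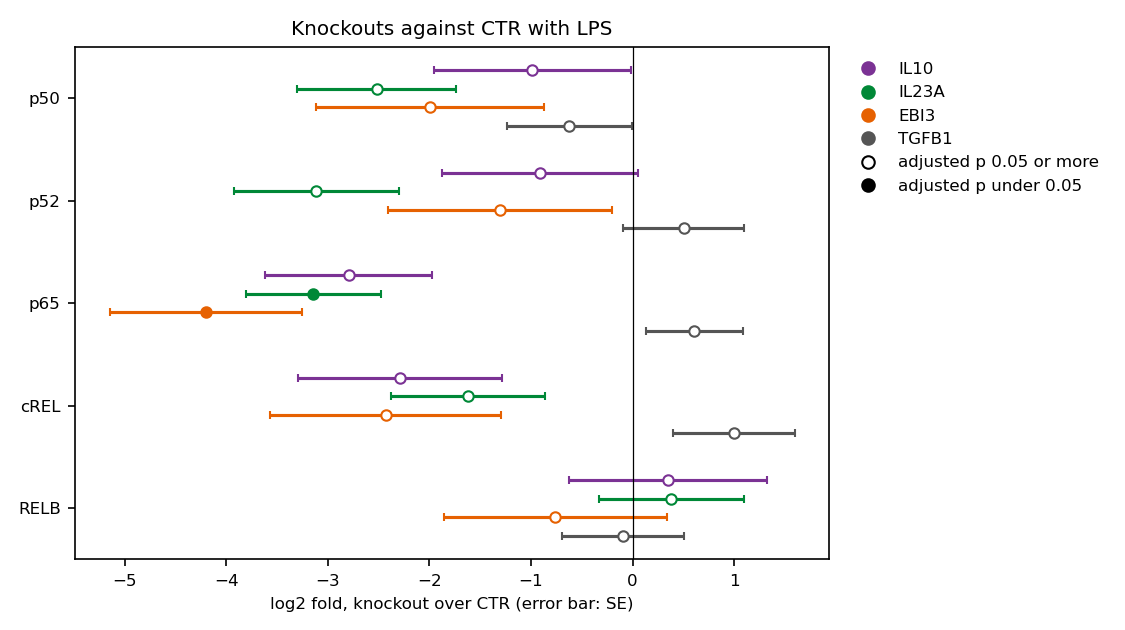
Log2 fold of each knockout over CTR with LPS for IL10, IL23A, EBI3 and TGFB1, with standard errors from edgeR. Filled points passed an adjusted p under 0.05, which only IL23A (-3.14) and EBI3 (-4.20) in p65 did; the RELB row lies nearest to 0 for IL10, IL23A and EBI3.

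Clones labelled RELB overlapped the control clones with LPS for IL10, IL23A and EBI3 by CPM, and RELB RNA itself was at the control level in replicate 2. IL23A was at 2.99 and 4.48 CPM in RELB, against 3.08, 2.85 and 1.38 CPM in CTR (log2 fold 0.38 ± 0.71, edgeR adjusted p = 0.914). By TPM they did not overlap, at 7.28 and 10.1 in RELB, against 6.14, 6.80 and 2.35 in CTR. IL10 was at 10.7 and 7.15 CPM in RELB, against 9.03, 6.23 and 5.69 CPM in CTR (log2 fold 0.35 ± 0.98, edgeR adjusted p = 0.9497). EBI3 was at 0.973 and 2.61 CPM in RELB, inside the CTR range of 0.882 to 6.95 CPM (log2 fold -0.76 ± 1.10, edgeR adjusted p = 0.881). Without RELB replicate 2 the log2 fold was 0.07 ± 1.00 for IL23A, 1.13 ± 1.15 for IL10 and -1.71 ± 1.40 for EBI3, and none passed. The standard errors leave room for differences of either sign, so equality is not shown. IL6 was different, with 3 and 0 counts in RELB against 28, 19 and 28 in CTR.

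Set against the mean of the other 4 knockouts with LPS, the clones labelled RELB had more IL23A. This contrast was chosen with earlier results of these data known, so its p repeats an observation already made and is not separate evidence. These clones also held more RELB RNA than any of the other knockouts with LPS, as given above, and its part in the result was not tested. Both RELB clones lay above all 9 clones of the other knockouts, which ran from 0.0921 CPM in p52 to 1.32 CPM in cREL. The log2 difference was 2.98 ± 0.50 (edgeR adjusted p = 0.00212), and 1.76% of all genes passed in this contrast and 1.4% passed as higher, beside 1 of 5 tested members. IL10 in RELB likewise lay above the other knockouts, which ran from 0.317 CPM in cREL to 5.89 CPM in p52, but missed the threshold (log2 difference 2.09 ± 0.65, edgeR adjusted p = 0.120). EBI3 overlapped them, with p52 up to 1.47 CPM (log2 difference 1.72 ± 0.69, edgeR adjusted p = 0.254). Without RELB replicate 2, the clone with the higher level of IL23A and with RELB RNA at the control level, the IL23A difference was 2.70 (edgeR adjusted p = 0.0592). It passed under every other alternative, with adjusted p from 1.63e-05 to 0.0592 overall. The difference in LPS response between RELB and these knockouts was 0.59 ± 0.81 on the log2 scale for IL23A (edgeR adjusted p = 1), a contrast in which 0.00537% of all genes passed.

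Without LPS no member differed past the threshold, although some knockouts lay wholly apart from CTR. With so few libraries this can happen without any true difference, and how many of all genes did so was not counted. By CPM and by TPM, RELB lay above CTR for IL10 and IL23A, p52 above CTR for EBI3 and below it for IL23A, and cREL above CTR for TGFB1. Untreated IL23A was at 1.38 and 2.59 CPM in RELB, against 0.709, 1.02 and 0.326 CPM in CTR, with no overlap (log2 fold 1.32 ± 0.72, edgeR adjusted p = 0.512). Untreated IL10 was at 4.67 and 4.84 CPM in RELB, above all CTR libraries at 2.90, 0.846 and 0.391 CPM (log2 fold 1.67 ± 1.014, edgeR adjusted p = 0.574). Untreated EBI3 was at 0.462 and 0.767 CPM in p52, against 0.129, 0.338 and 0.1304 CPM in CTR (log2 fold 1.88 ± 1.06, edgeR adjusted p = 0.727). Untreated IL23A was at 0.231 and 0.256 CPM in p52, against the CTR values given above (log2 fold -1.64 ± 0.81, edgeR adjusted p = 0.675). In p65, untreated IL10 was at 1.05, 0.191 and 0.134 CPM, which overlapped CTR by CPM and lay below it by TPM (log2 fold -1.43 ± 0.91, edgeR adjusted p = 0.541). By TPM alone, untreated IL10 in p50 and p52 lay above CTR. By CPM alone, untreated EBI3 in cREL lay below CTR. Of the 5 tested members 0 passed in any knockout against CTR untreated in edgeR or DESeq2, and 0 had an unadjusted p under 0.05. Here 0.0537% of all genes passed in p65, 0.0107% in RELB and 0% in p50, p52 and cREL. An unadjusted p under 0.05 was reached by 1196 genes in p50, 1416 in p52, 2398 in p65, 1077 in cREL and 2057 in RELB. DESeq2 called 41, 62, 319, 24 and 218 genes in the same order.

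The groups were also ordered by mean TPM. For IL6, CTR with LPS stood first (2.22 ± 0.18 TPM, SD, n = 3) and did not overlap the next group, RELB with LPS. For IL10 the order began with RELB with LPS (13.9 ± 5.4, n = 2), RELB untreated (9.71 ± 2.21) and CTR with LPS (9.48 ± 1.56, n = 3). It ended with p65 with LPS (1.62 ± 0.55, n = 3) and p65 untreated (0.640 ± 0.484). By TPM these libraries narrowly did not overlap, the lowest with LPS being 1.189 and the highest untreated 1.154. By CPM they overlapped, and p65 replicate 1 was lower with LPS, at 0.918 against 1.05 CPM. For IL23A it began with RELB with LPS (8.70 ± 2.02), RELB untreated (5.73 ± 3.18) and CTR with LPS (5.10 ± 2.40) and ended with p52 untreated (0.414 ± 0.032). For EBI3 CTR with LPS was highest (5.28 ± 3.80), then RELB with LPS (2.81 ± 2.00) and p52 with LPS (1.83 ± 0.50), and p65 untreated was lowest (0.133 ± 0.231). Neighbours in these orders mostly could not be separated: of 11 neighbouring pairs, the library ranges overlapped in 10 for IL6, IL10, EBI3 and IL15 and in 11 for IL23A, CSF1 and TGFB1.

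TGFB1, like IL10, was present in every library, and no difference with LPS or genotype passed the threshold. With LPS its group mean was highest in cREL, at 6.64 and 9.04 CPM, both above the CTR libraries at 4.38, 3.48 and 5.80 CPM (log2 fold 1.00 ± 0.60, edgeR adjusted p = 0.665). Untreated, cREL had 7.61 and 6.18 CPM, again above CTR at 5.28, 5.13 and 3.13 CPM (log2 fold 0.76 ± 0.58, edgeR adjusted p = 0.955). Clones of 1 genotype differed widely: with LPS, RELB had 1.39 and 8.28 CPM and p50 had 5.61 and 1.04 CPM. In both p50 clones and both RELB clones TGFB1 was lower with LPS than untreated, with log2 folds of -0.54 ± 0.59 and -0.72 ± 0.58 (edgeR adjusted p = 1 in each). Its exons share 215 bases with HNRNPUL1 on the other strand, which was at 28.6 to 76.0 TPM, well above TGFB1, and reads in that stretch cannot be assigned without strand.

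IL15 gave values too low to compare. With LPS its counts were 6 and 4 in p50, 0 and 3.13 in p52, 6.00, 4 and 4.02 in p65, 6.00 and 3 in cREL and 5 and 5.02 in RELB, against 5, 3.00 and 1.007 in CTR. By CPM and by TPM these libraries overlap between all knockouts and CTR, and a difference was not detectable at this depth.

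The subunits that partner IL23A and EBI3 were mostly absent. IL12B, the partner of IL23A, reached at most 0.189 TPM in any library, and IL27, a partner of EBI3, at most 1.11 TPM. IL12A, the other partner of EBI3, was at 0.777 to 4.32 TPM and did not change past the threshold with LPS in CTR (log2 fold 0.50 ± 0.48, edgeR adjusted p = 1). Of the 6 partner subunits and other ligands listed, 3 were tested and 0 passed in any of the 23 comparisons in edgeR or DESeq2, with 4 of 69 tests at an unadjusted p under 0.05. In a single comparison, 291 to 2608 of all 18624 genes had an unadjusted p under 0.05. IL34, another ligand of CSF1R, reached at most 1.31 TPM.

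Most of the 16 receptors listed were more abundant than the 7 genes, IL23R and IL12RB2 being the lowest. IL2RG, the shared chain that IL15 uses, averaged 161 TPM, ENG, a TGF-beta co-receptor, 95.7 TPM and TGFBR1, a TGF-beta receptor kinase, 87.1 TPM. IL23R, the receptor chain specific to interleukin 23, reached at most 0.034 TPM. Of 16 receptors, 15 were tested, and only IL6R passed in edgeR, in p65 against CTR with LPS, where 0.993% of all genes passed. DESeq2 called 4 receptors (CSF1R, IL10RA, IL15RA and IL6R) over the 23 comparisons, and 650 genes in all in p65 against CTR with LPS. In edgeR 27 of 345 receptor tests had an unadjusted p under 0.05, beside 291 to 2608 of all 18624 genes in a single comparison. IL6R averaged 50.5 ± 17.2 TPM in p65 and 30.8 ± 11.9 TPM in CTR (SD, n = 3 each), with a log2 fold of 0.75 ± 0.16 (edgeR adjusted p = 0.0217). Its log2 fold was 0.96 without p65 replicate 1 (edgeR adjusted p = 0.00745) and 0.48 without the batch term (edgeR adjusted p = 0.83). IL6R did not pass in batch C alone (edgeR adjusted p = 0.259). It also did not pass without CTR replicate 1 or 3, p52 replicate 1, or p65 replicate 2 or 3 (edgeR adjusted p = 0.0533 to 0.103). Its adjusted p ran from 0.000869 to 0.83 over all alternatives. The median log2 fold of the 15 receptors in p65 against CTR with LPS was -0.20, beside 0.01 over all genes. IL15RA, which presents IL15, was at 11.6 to 143 TPM, and its log2 fold with LPS in CTR was 1.31 ± 0.30 (edgeR adjusted p = 0.0694).

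Genes downstream of these receptors, and those that handle latent TGF-beta, gave no call in edgeR. Of 18 signal carriers and feedback genes 17 were tested and 0 passed in any comparison, with 38 of 391 tests at an unadjusted p under 0.05, while DESeq2 called SKIL and SMAD7 among them. TYK2, a kinase bound to cytokine receptors, averaged 57.8 TPM and SMAD2, which carries TGF-beta signals, 57.0 TPM. Of 10 genes for latent TGF-beta handling 8 were tested and 0 passed in edgeR, with 10 of 184 tests at an unadjusted p under 0.05 and 1 gene, FURIN, called by DESeq2. Beside these unadjusted counts, 291 to 2608 of all 18624 genes had such a p in a single comparison. LTBP4 averaged 39.7 TPM, LTBP1 29.3 TPM and FURIN, a protease that cleaves the TGFB1 precursor, 17.3 TPM.

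**Figure D4:**
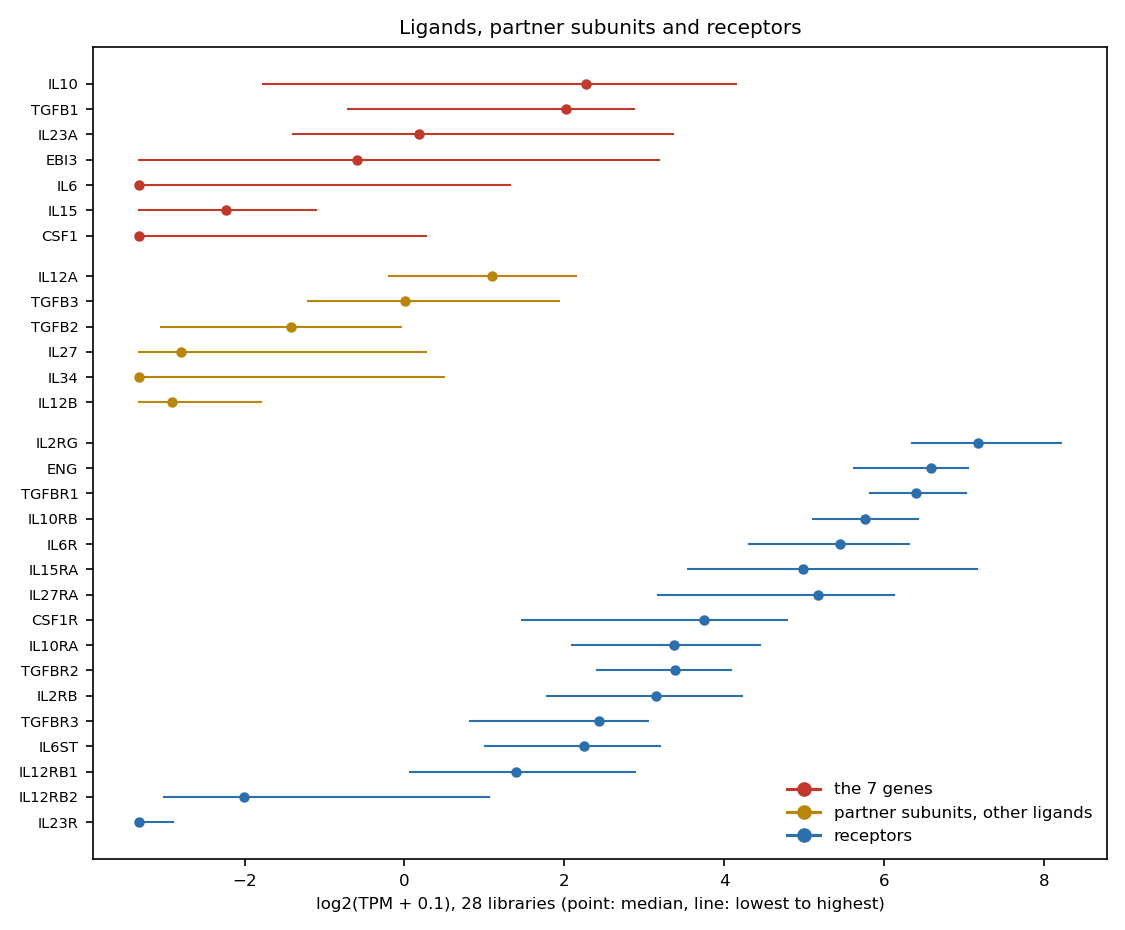
Level of the 7 genes, 6 partner subunits or other ligands and 16 receptors as log2(TPM + 0.1), where a value of about -3.3 is 0 TPM. Points are medians and lines run from the lowest to the highest of 28 libraries. Most receptors lie to the right of the ligands, while IL12B and IL23R stay toward the left edge. The medians of IL6 and CSF1 are at 0 TPM, and the IL27 line reaches further right than those of IL12B and IL23R.

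As a description over the 28 libraries, which share clones, batches and treatment, IL10 and EBI3 varied most alike among the tested members (Spearman rho 0.71). IL23A had a rho of 0.51 with IL10 and 0.51 with EBI3, and TGFB1 one of 0.11 with IL10 and -0.02 with EBI3. Among 9982 genes with a mean of at least 5 CPM, the gene most like IL10 was DUSP6 (rho 0.92), a phosphatase of ERK kinases, followed by C3AR1 (0.87), the C3a receptor, and DCUN1D3 (0.85). EBI3 was most like TNFAIP6 (0.85), C3AR1 (0.85) and the chemokine CXCL11 (0.84), and IL23A most like PROS1 (0.78), IPCEF1 (0.78) and DDIT3 (0.77). TGFB1 was most like HOMER3 (0.85), GRINA (0.82) and RNASET2 (0.80). For IL6, at 0 in 23 libraries, the values rest on 5 libraries, and RFFL (0.67), PNKD (0.65) and NKIRAS2 (0.64) came out highest.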

How the data were processed

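The authors deposited 3 gene tables for the 28 libraries: estimated counts per gene symbol (41.0 to 47.5% of nonzero values whole), TPM, and effective length in bases. Deposited TPM values are scaled per library by length and total, and the 3 tables describe 1 quantification. The submitters' processing notes name Salmon 0.11.3, FastQC 0.11.7 and GRCh38; settings, strand use and annotation release were not given in the sources used here. All 56809 symbols matched GENCODE 29, used for exon overlaps. Libraries were oligo(dT)-primed and PCR-amplified, per the labels' protocols.

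Estimated counts were rounded and tested with edgeR 4.0.16 (R 4.3.3): filterByExpr (minimum count 10, total 15) kept 18624 genes, TMM scaling, and a robust quasi-likelihood model with 12 groups and batch as an additive term. There were 23 comparisons, with Benjamini-Hochberg adjustment over all genes in each and a threshold of 0.05. Log CPM used a prior count of 2. On simulated data for p65 against CTR with LPS, over 17873 genes, 76% of 100 genes with a log2 fold of size 2 and 93% of 100 with one of size 4 were recovered. The simulation held no batch or clone effect and changed only genes above a set mean level. It therefore does not give the recovery in the real libraries, nor for a gene as low as IL6.

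Genotype, treatment, replicate number and batch come from the labels. Untreated and LPS libraries of 1 genotype and number were read as 1 clone. Their deviations from group means correlated at 0.203 to 0.441 in the 14 clones. In a group of 2 clones both have the same value by construction. Both libraries of a number also carry 1 batch label, so this correlation cannot tell a shared clone from a shared batch. Among 20 replicate pairs r was 0.947 to 0.969, with no identical pair. Alternatives tried were batch C alone, leaving out the batch term, the filter or each clone, an offset for effective length, RLE size factors, DESeq2 1.42.0, and the clone as an edgeR block or as a limma 3.58.1 voom random effect. All 7 members were read in every library; other genes come from 4 pathway lists, by test result or as the 3 highest in mean TPM, and genes of like pattern as the 3 highest by rho. A result that these rules would name is not reported here. IL15RA, IL12B, IL27, IL34 and IL23R were named after their values were seen. Members, lists and the RELB contrast were chosen with earlier results of these data known. Promoter sequences are from RefSeq (GRCh38.p14); 5 of 7 members had an entry.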

Additional observations from a re-analysis of the deposited data

Results flagged for a closer look

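IL15 was lower with LPS than untreated in both p52 clones and higher in every p50, p65, cREL and RELB clone, by CPM. In p65 replicates 2 and 3 the counts were nearly equal, at 4 with LPS against 4.01 untreated and 4.02 against 4.03, and replicate 2 was lower with LPS by TPM (0.0576 against 0.142). In p52 the mean difference was -0.261 CPM, from 0 counts with LPS against 7 untreated in replicate 1 and 3.13 with LPS against 5 untreated in replicate 2. CTR was mixed: replicate 3 was lower with LPS by 0.269 CPM (1.007 counts against 5.01), about as much as the p52 mean, and replicates 1 and 2 were higher. The difference between genotypes was not tested, since IL15 did not pass the filter on low counts, and every value rests on at most 7 counts.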

How the results depend on the processing

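The number of the 7 genes past the threshold was unchanged in 18 of the 23 comparisons under every alternative run. For LPS in CTR it was 0, against 3 with no filter (EBI3, IL10 and IL6), 1 with no batch term and 1 with DESeq2 (EBI3 in each), and 0 to 1 with a clone left out, EBI3 passing without CTR replicate 2 or p65 replicate 3. For p65 against CTR with LPS it was 2, against 4 with no filter and 3 with DESeq2 (650 over all genes). There it was 0 in batch C alone and 1 with the effective length offset (IL23A). With a clone left out it was 0 to 2, at 0 without CTR replicate 1, p65 replicate 2 or p65 replicate 3. For RELB against the other knockouts with LPS it was 1, against 2 with no filter, and 0 to 2 with a clone left out. With no filter, 1 passed in p50 (IL6) and 2 in cREL (IL10 and IL6) against CTR with LPS, where 0 passed otherwise. IL6 had passed the filter only through CTR with LPS and is set against groups at or near 0, so its calls are not separate evidence. No called fold changed sign. Over all genes the counts were 76 for LPS in CTR (20 to 252 over the alternatives), 185 for p65 against CTR with LPS (9 to 992) and 328 for RELB (163 to 993), lowest in batch C alone or with no batch term and highest with no filter. The cause was not tested.

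Keeping the clone pairing changed the count for LPS in CTR to 1 with clone as a block in edgeR and to 3, IL6 included, as a random effect in limma voom. The random effect gave 4, IL6 included, for p65 against CTR with LPS and 2 for RELB against the other knockouts, and the pairing changed no other count. A block cannot be fitted in edgeR where genotypes are compared, since each clone has 1 genotype.

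Depth limits all 7 genes: no library held more than 171 counts of any, CSF1 and IL15 could not be tested, and IL6 has no fitted fold.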
